A study of Homo sapiens with 2 samples.

Results

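The cytosolic ribosomal protein genes described here are the protein genes of the ribosome that works outside mitochondria, in 2 human prostate cancer cell lines profiled by single-cell RNA-Seq. Members were taken by symbol, as the RPL and RPS genes with their paralogs, RPSA, and the P stalk genes RPLP0, RPLP1 and RPLP2. RPS6 kinases, Y-linked copies, RPS27L, RPS19BP1 and pseudogenes were left out, and 100 or more unique molecular identifiers (UMIs, each the tag of 1 captured transcript) over both libraries were required. Of 36601 genes in the files, 84 matched the symbols and 82 passed the UMI minimum. The 2 that did not pass were RPL39L, with 9 UMIs over both libraries, and RPL3L, with 16, while the lowest member was RPL10L with 282. The next members, RPL26L1 with 6611 UMIs and RPL7L1 with 19009, lay far above the minimum. The members comprised 77 genes of the canonical ribosome and 5 L-type paralogs, RPL22L1, RPL26L1, RPL36AL, RPL7L1 and RPL10L.

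The cells were LNCaP_FGC, an androgen-responsive line from a prostate carcinoma metastasis, and LNCaP_C4-2B, which descends from LNCaP by passage in castrated mice and grows without androgen. Both were unselected cultures in RPMI1640 with serum and antibiotics and received no drug, so the groups differ in strain and in nothing else that the labels name except the batch date. Each line gave 1 library of 1850 cells made with 10x Genomics 3′ chemistry. With 1 library a line there was no replicate and no test between lines was possible. Strain and batch cannot be told apart, and every interval given is a 95% interval for counting error only.

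The ribosome is built from a large and a small subunit, each a core of ribosomal RNA wrapped in proteins that are, with the exception of the P stalk, present in single copy. The messengers of these proteins are among the most abundant in a growing cell, and most begin with a terminal oligopyrimidine (TOP) tract, an unbroken run of C and T at the cap, through which the mTOR pathway and LARP1 control their translation and stability. In prostate cancer as in other tumors, demand for ribosomes follows growth signalling, and free RPL5 and RPL11 restrain MDM2, the inhibitor of p53.

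The start regions of the members that carry the contrasts below are shown because the TOP tract is a feature the members share and the symbol rule did not use. Each is a window of 30 bases, 15 before and 15 from the annotated start, 5′ to 3′ on the gene's strand, from RefSeq on GRCh38.p14, and capitals mark a run of C and T that opens with C and reaches or lies near the start.
RPS9 (chr19:54200843-54200872, plus strand): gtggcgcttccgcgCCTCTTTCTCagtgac
RPL21 (chr13:27251543-27251572, plus strand): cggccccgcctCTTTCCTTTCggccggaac
RPL38 (chr17:74203663-74203692, plus strand): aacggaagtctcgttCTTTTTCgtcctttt
RPL31 (chr2:101002274-101002303, plus strand): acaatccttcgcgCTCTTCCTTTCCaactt
RPL41 (chr12:56116618-56116647, plus strand): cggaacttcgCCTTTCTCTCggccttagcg
RPL35A (chr3:197950175-197950204, plus strand): cggcggggcctcgtCCTTCTCTTaccgcca
RPL22 (chr1:6199581-6199610, minus strand): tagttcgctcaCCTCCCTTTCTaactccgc
RPL22L1 (chr3:170870181-170870210, minus strand): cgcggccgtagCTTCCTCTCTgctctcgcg
RPL3 (chr22:39319609-39319638, minus strand): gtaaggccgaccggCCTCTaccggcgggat
RPL9 (chr4:39458908-39458937, minus strand): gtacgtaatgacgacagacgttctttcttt
RPL13 (chr16:89560642-89560671, plus strand): ggccctgctatcatcccagagtgcattgcg
RPL7L1 (chr6:42879601-42879630, plus strand): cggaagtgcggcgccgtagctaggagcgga
In the first 9 windows a run crosses or touches the annotated start, in genes whose ratio between the lines lies at the top (RPS9, RPL21) and at the bottom (RPL38, RPL31) of the members. The windows of RPL9, RPL13 and RPL7L1 hold no such run within 5 bases of the annotated start.

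Of the 67 members with an entry in the promoter table, 43 (64.2%) had a C at the annotated start followed by at least 4 further C or T, against 4.04% of all 27305 promoters in the table. Allowing the run to open within 5 bases on either side of the start raised the count to 52 (77.6%), against 21.1% of all promoters. Over the 300 bases of the table on both strands, CCGGAAG, the core of the GABPA and ETS site, was found in 32.8% of members and 10.7% of all promoters. AAGATGG, the core of the YY1 site, was found in 13.4% and 6.06%, and TATAAA in 10.4% and 12%. A match of letters is a description of the sequence and not a site in use.

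The 2 libraries had nearly equal depth, 35150013 UMIs in LNCaP_FGC and 35149989 in LNCaP_C4-2B, since the authors thinned them to the same mean of 19000 per cell. Cells held between 8988 and 51088 UMIs, and no cell barcode was shared by the libraries. The 10 luminal prostate markers, KLK3 among them, were detected in both, with a summed level of 3017 CPM (a count divided by its library's total and scaled so that 1 UMI is 0.0284 CPM) in LNCaP_FGC and 5299 in LNCaP_C4-2B, while lists for basal, fibroblast, immune, endothelial and erythroid cells each summed to at most 22.7 CPM. The authors had removed cells with a high percentage of ribosomal reads before deposit, and the highest share of ribosomal protein UMIs in a deposited cell was 35.6% in LNCaP_FGC and 39.8% in LNCaP_C4-2B.

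Ribosomal protein transcripts were a larger part of the transcriptome in LNCaP_C4-2B than in LNCaP_FGC. They took 22.98% of UMIs in LNCaP_FGC (interval 22.97 to 22.99) and 28.14% in LNCaP_C4-2B (28.12 to 28.15), a ratio of 1.224 (1.223 to 1.226). The mean cell held 4366 ribosomal protein UMIs in LNCaP_FGC and 5346 in LNCaP_C4-2B at the common depth. Because both libraries were set to the same depth, these are parts of a total and not amounts of RNA per cell.

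The difference ran through the cells rather than through a subset. The median cell share was 22.7% in LNCaP_FGC, with 5% of cells below 17.2% and 5% above 29.4%, and 28.1% in LNCaP_C4-2B, with limits of 23.8% and 33.2%. Of 1850 LNCaP_C4-2B cells, 1811 (97.9%) lay above the LNCaP_FGC median, and 156 LNCaP_FGC cells (8.43%) lay above the LNCaP_C4-2B median. LNCaP_FGC cells were spread more widely, with an SD over cells of 3.64 percentage points against 2.86. Mitochondrial transcripts, another abundant class, took 6.27% in LNCaP_FGC and 8.35% in LNCaP_C4-2B, and without them the ribosomal share was 24.5% and 30.7%.

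Levels of different members are set side by side here without division by length, since a 3′ UMI marks 1 molecule whatever its size. Members also differ in their number of named pseudogenes, and the effect of such copies on a level was not tested. The highest member in LNCaP_FGC was RPL41, which encodes a very short peptide of the large subunit, at 10010 CPM, and it held rank 5 in LNCaP_C4-2B at 6927 CPM. RPS2, a protein of the messenger entry channel, was the highest in LNCaP_C4-2B at 12265 CPM and stood at 5756 CPM in LNCaP_FGC. RPS18 (4505 and 8060 CPM) and RPS28 (5731 and 6496 CPM), both of the small subunit, were also among the 5 highest over both libraries.

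At the low end, RPL26L1 had 100 CPM in LNCaP_FGC and 88.1 CPM in LNCaP_C4-2B. RPL7L1 had 292 and 248 CPM, RPL36AL 535 and 585 CPM, and RPL31 1392 and 765 CPM. The lowest canonical member was RPS10, a small subunit protein whose gene is mutated in Diamond-Blackfan anemia, at 537 CPM in LNCaP_FGC and 387 CPM in LNCaP_C4-2B. Over the 74 canonical members outside the P stalk, whose proteins are present in single copy per ribosome, levels spanned 18.6-fold in LNCaP_FGC and 31.7-fold in LNCaP_C4-2B, although between the lowest and highest 10% of them the span was 3.05-fold and 3.56-fold. In both libraries 75 of the 82 members had a UMI in every cell and 79 in at least 99% of cells. The exceptions were RPL7L1, RPL26L1 and RPL10L, the last with a UMI in 7.78% of LNCaP_FGC cells and 6.70% of LNCaP_C4-2B cells.

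The order of the members was partly kept between the lines. Pearson's r of log10 CPM over the 82 genes was 0.92 and Spearman's rho 0.68, as a description of genes that share both libraries. Of the 10 highest members in each library 6 were common to both, and 22 of the 82 changed their rank by at least 20 places.

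**Figure D1:**
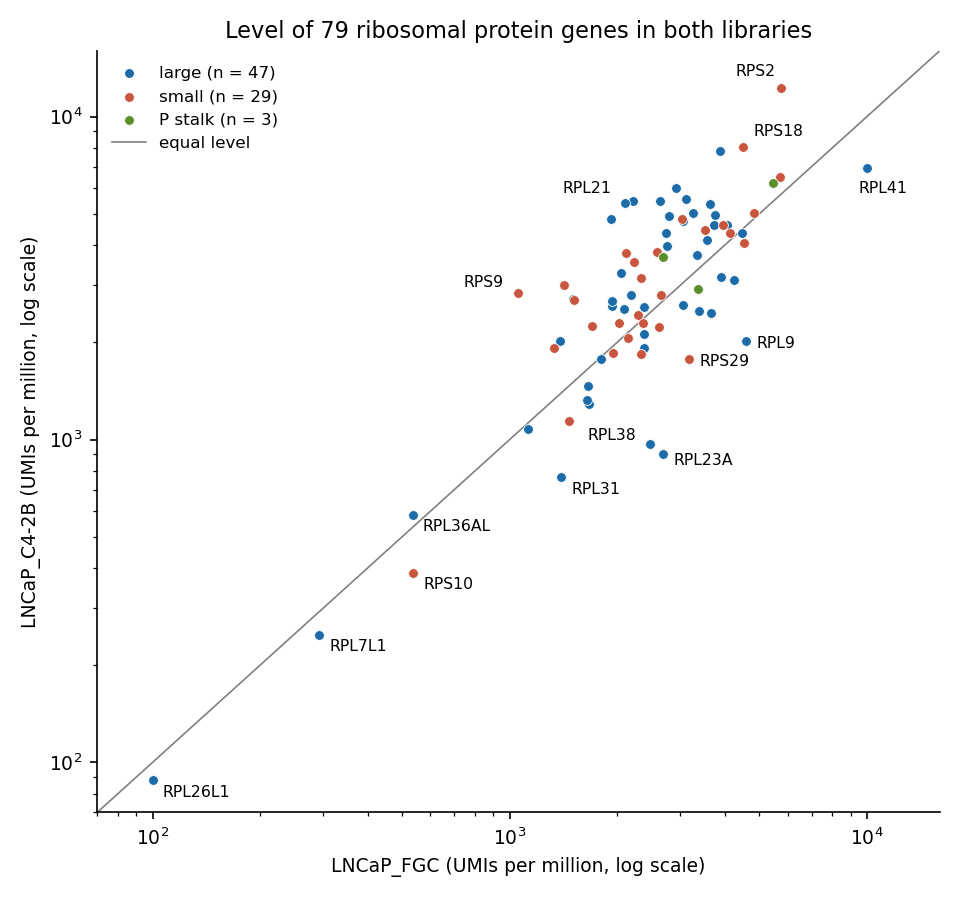
Level of 79 members (RPL10L, near 4 CPM, is among those not drawn) in LNCaP_FGC on the horizontal axis and in LNCaP_C4-2B on the vertical axis, in CPM on log scales, 1 point per gene, coloured by subunit. Most points lie above the line of equal level, RPL23A (2682 against 899 CPM) and RPL38 (2478 against 971 CPM) lie farthest below it, and RPS9 (1054 against 2844 CPM) lies farthest above it.

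Between the lines the members were shifted upward as a group against other genes, while single members ran from nearly 3-fold lower to nearly 3-fold higher in LNCaP_C4-2B. Ratios are LNCaP_C4-2B over LNCaP_FGC. The median of the 12764 genes with at least 100 UMIs was at a log2 ratio of -0.43 by CPM, so calls were made at 1.5-fold from that median gene. By that rule 43 of the 82 members were higher, where 22.8% of all genes were, and 3 were lower, where 22.3% of all genes were. By CPM alone 22 members were at least 1.5-fold higher and 5 lower, against 11.2% and 41.7% of all genes. The members' median log2 ratio was 0.18 by CPM, or 0.61 above the median gene, and 50 members lay above 0 and 32 below. Of all 12764 genes 3720 lay above 0 and 9044 below. Relative to the median gene 72 of the 82 members lay above. The size of the shift depended on the UMI minimum. Among genes with at least 3500 UMIs the median gene was at -0.21 and the members' median 0.40 above it. There 33 of 81 members were higher and 5 lower, and the share of all genes called at that minimum was not computed. The counting interval left out 1 for 81 of the 82 members, the exception being RPL10L.

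Both subunits took part, with the 3 P stalk genes, which belong to the large subunit, counted apart here. In the large subunit 24 of 48 members were higher and 3 lower, with a median log2 ratio of 0.17 and a range from -1.58 to 1.36. In the small subunit 17 of 31 were higher and none lower, with a median of 0.18 and a range from -0.84 to 1.43. As sums, the small subunit genes were at 89892 and 114614 CPM, a ratio of 1.275 (1.273 to 1.277). The large subunit genes were at 128374 and 153970 CPM, a ratio of 1.199 (1.198 to 1.201). Without the P stalk, the large subunit genes thus made up 55.9% of ribosomal protein UMIs in LNCaP_FGC and 54.7% in LNCaP_C4-2B. The small subunit genes made up 39.1% and 40.7%, and the P stalk genes 5.02% and 4.55%.

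**Figure D2:**
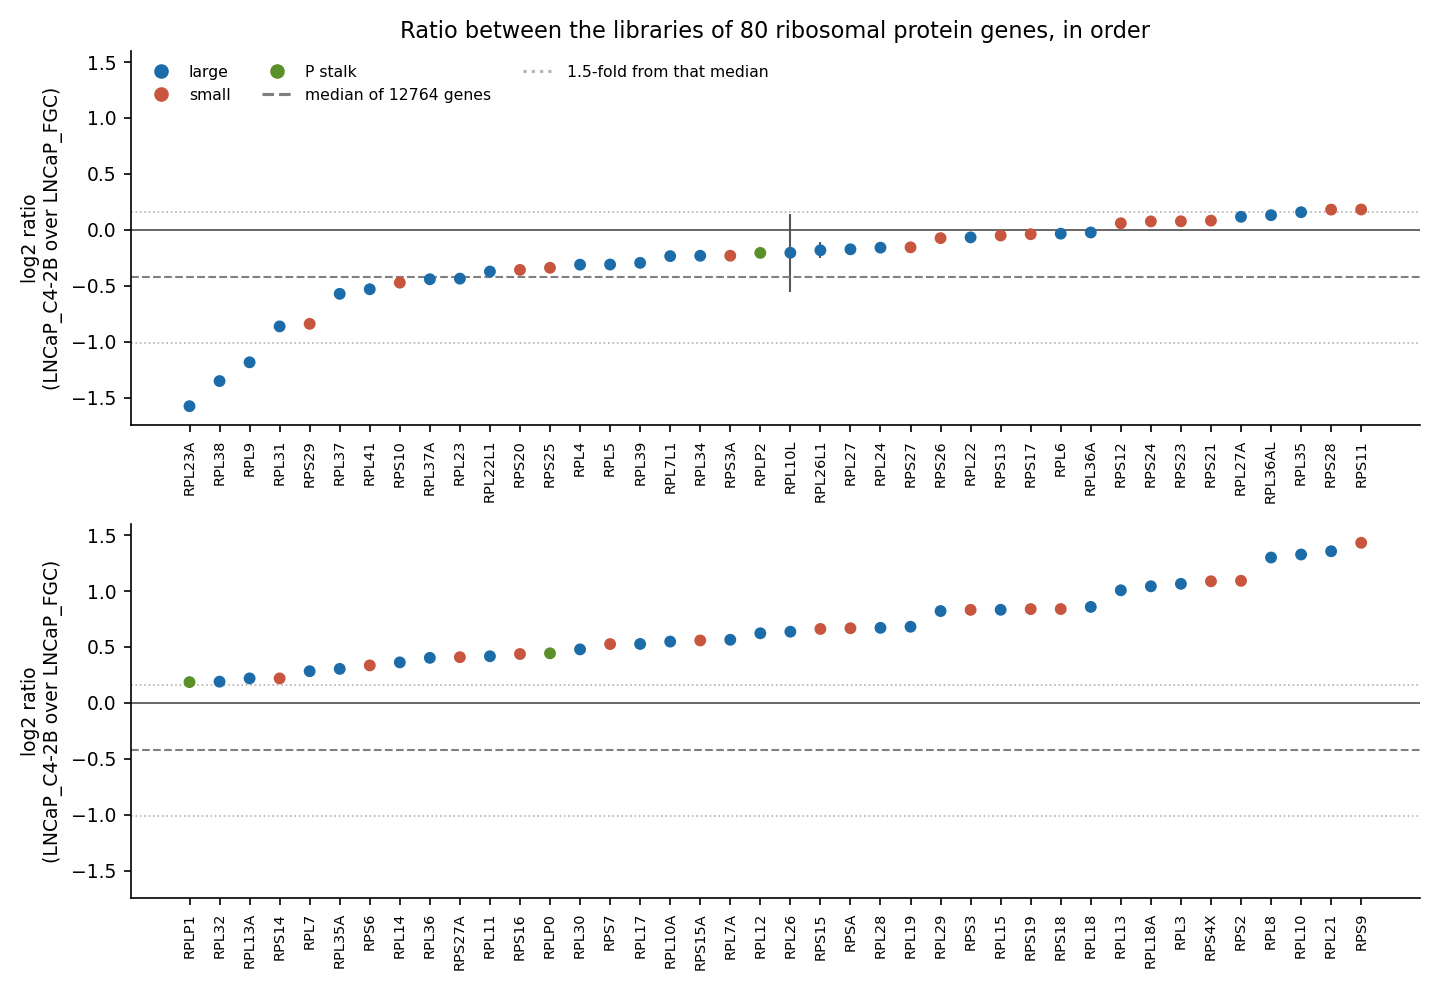
Ratio of LNCaP_C4-2B to LNCaP_FGC, as log2 of CPM, of 80 members in rising order over both panels, coloured by subunit, with the 95% counting interval as a vertical bar, mostly shorter than the point. The dashed line is the median of 12764 genes and the dotted lines mark 1.5-fold from it, and 42 of the members drawn lie above the upper dotted line and 3 below the lower one.

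The members with the highest ratios came from both subunits. RPS9, which lines the messenger entry channel of the small subunit, was at 1054 CPM in LNCaP_FGC and 2844 CPM in LNCaP_C4-2B, 2.70-fold higher (2.67 to 2.73). RPL21, of the large subunit, was at 2107 and 5393 CPM, 2.56-fold higher (2.54 to 2.58). RPL10, a large subunit protein added late in assembly and mutated in some leukemias, was at 1920 and 4817 CPM, 2.51-fold higher (2.49 to 2.53). RPL8 stood at 2219 and 5463 CPM and RPS2 at 5756 and 12265 CPM, 2.46-fold and 2.13-fold higher. RPL21 has 133 named pseudogenes in the annotation and RPL10 has 19. Among the members of lowest ratio, described next, RPL23A has 91 and RPL31 has 62. How the counting divided reads between gene and copies was not tested.

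Of the 6 lowest ratios 5 belonged to the large subunit. RPL23A, which sits at the mouth of the nascent peptide tunnel, was at 2682 CPM in LNCaP_FGC and 899 CPM in LNCaP_C4-2B, 2.98-fold lower (2.94 to 3.02). RPL38, required for translation of Hox messengers in mouse embryos, was at 2478 and 971 CPM, 2.55-fold lower (2.52 to 2.59). RPL9 was at 4577 and 2014 CPM, 2.27-fold lower. In LNCaP_FGC RPL9 was the seventh highest member, and in LNCaP_C4-2B it held rank 63. RPL31, RPS29 and RPL37 followed at 1.82-fold, 1.79-fold and 1.49-fold lower, but relative to the median gene these 3 lay within 1.5-fold.

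The changes in composition are also seen within the ribosomal protein UMIs alone, where the larger total plays no part. RPS2 went from 2.51% to 4.36% of them and RPL41 from 4.36% to 2.46%. RPL23A went from 1.17% to 0.320% and RPS9 from 0.459% to 1.01%. On that scale 36 members took a larger part in LNCaP_C4-2B and 46 a smaller part, and the 5 highest members together held 15.3% in each line.

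By position in the ribosome, grouped from textbook knowledge after the values were seen, the 3 proteins of the messenger entry channel were all past the rule upward. So were 43 of all 82 members, and differences between positions were not tested. RPS3, a head protein that also acts in DNA repair, was at 2120 CPM in LNCaP_FGC and 3773 CPM in LNCaP_C4-2B, beside RPS2 and RPS9 above. At the messenger exit RPS28 was 1.13-fold higher (1.13 to 1.14), also past the rule upward, and RPS26, at 1947 and 1850 CPM, lay between. Around the mouth of the peptide tunnel RPL26 (3061 and 4759 CPM), RPL19 (2052 and 3289 CPM) and RPL17 (2765 and 3984 CPM) were past the rule upward, RPL23A was past it downward, and RPL31, RPL35 and RPL39 lay between.

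In the P stalk, which recruits elongation factors, RPLP0, its base, was at 2694 CPM in LNCaP_FGC and 3663 CPM in LNCaP_C4-2B, a ratio of 1.36 (1.35 to 1.37). RPLP1 was at 5465 and 6216 CPM, a ratio of 1.14, and RPLP2 at 3370 and 2921 CPM, a ratio of 0.867. The partners RPLP1 and RPLP2, which bind the base as dimers, therefore stood on opposite sides of equal level. By the rule RPLP0 and RPLP1 were higher and RPLP2 lay between. In the 5S particle, the pair that binds MDM2, RPL11 was at 1939 and 2589 CPM, a ratio of 1.34 (1.32 to 1.35), and RPL5 was at 2379 and 1918 CPM, a ratio of 0.806 (0.798 to 0.815).

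Other members fixed by name covered the small subunit. RPS6, the substrate of S6 kinases, was at 3526 CPM in LNCaP_FGC and 4449 CPM in LNCaP_C4-2B, a ratio of 1.26. RPS19, the gene most often mutated in Diamond-Blackfan anemia, was at 1514 and 2709 CPM, a ratio of 1.79 (1.77 to 1.81). RPSA, which also serves as a laminin receptor, was at 2229 and 3541 CPM, a ratio of 1.59. RPS27A, made as a fusion with ubiquitin, was at 1695 and 2250 CPM, a ratio of 1.33. All 4 were past the rule upward.

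Of the 5 L-type paralogs none was past 1.5-fold from the median gene, and the balance between paralog and main gene differed by pair. RPL22L1 was the larger partner in both lines. It gave 59.7% of RPL22 and RPL22L1 UMIs in LNCaP_FGC (59.4 to 60.0) and 54.5% in LNCaP_C4-2B (54.2 to 54.9), with RPL22L1 at 1672 and 1291 CPM and RPL22 at 1128 and 1076 CPM. RPL22 is an RNA-binding protein that restrains its own paralog.

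In the other pairs the paralog was the minor partner. RPL36AL gave 22.9% of its pair in LNCaP_FGC and 24.8% in LNCaP_C4-2B, RPL7L1 12.3% and 8.91%, and RPL26L1 3.16% (3.06 to 3.27) and 1.82% (1.75 to 1.88). The main gene drove the last of these, since RPL26 was 1.55-fold higher in LNCaP_C4-2B and RPL26L1 0.881-fold. RPL10L, a copy without introns known from testis, gave 0.223% and 0.0773%. RPL10L and RPL36AL are nearly identical in coding sequence to RPL10 and RPL36A, so their counts are uncertain. RPL39L and RPL3L, under the UMI minimum, gave at most 0.0119% of their pairs.

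Genes of ribosomal proteins that the symbol rule left out differed from each other. RPS27L, a p53-induced copy of RPS27, was at 1369 CPM in LNCaP_FGC and 299.9 CPM in LNCaP_C4-2B, 4.57-fold lower (4.47 to 4.66), a larger difference than in any member. RPS27 itself was at 4518 and 4054 CPM, so that RPS27L gave 23.3% of the pair in LNCaP_FGC and 6.89% in LNCaP_C4-2B. FAU, whose product is cut to RPS30, was at 1126 and 1402 CPM, a ratio of 1.24. RACK1, a scaffold protein on the head of the small subunit, was at 1358 and 2230 CPM, a ratio of 1.64 (1.62 to 1.66).

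Among features of the genes, GC content moved with the ratio. Over the 82 members the log2 ratio and the GC percentage of the exons had a Pearson's r of 0.48 and a rho of 0.46, against 0.18 and 0.20 over 11454 other genes. In the 28 members of highest GC (51.5% to 63.6%) 23 were past the rule upward with a median log2 ratio of 0.67, in the middle group 9 of 27 with a median of -0.04, and in the lowest group 11 of 27 with a median of 0.08. RPL21, second in ratio, is an exception at 43.1% GC. Exon length and the number of named pseudogenes had r of 0.04 and -0.02 with the ratio over the members, while length had r of -0.24 over the other genes. These are descriptions over genes of 1 pair of libraries, and the part of GC content in the ratios was not tested.

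The 12 members on chromosome 19 were all past the rule upward, with a median log2 ratio of 0.67, where the other 862 genes tested on that chromosome had a median of -0.40. All 12 also belonged to the highest GC group. The 16 members of that group on other chromosomes had a median of 0.65, with 13 above 0 and 11 past the rule upward. On chromosome 4 all 3 members, RPL9, RPL34 and RPS3A, lay below equal level, with a median of -0.23, as did most of the 421 other genes there, which had a median of -0.78 with 11.4% above 0. By run of C and T, the median log2 ratio was 0.16 in the 43 members with a run at the annotated start (range -1.35 to 1.43), with 27 above 0. It was 0.42 in the 9 with a run only nearby (-0.31 to 1.06), with 8 above 0. In the 15 with no run within 5 bases it was -0.03 (-1.18 to 1.33), with 7 above 0. These 15 were not shown to lack a TOP tract, since the starts in use in these cells were not examined. The difference between these groups was not tested.

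Other genes of translation and ribosome assembly, in lists by function, went in different directions by the same rule at 1.5-fold from the median gene. Of 7 translation elongation factors 4 were higher and none lower, with a median log2 ratio of 0.62. Of the 2 release factors listed with them, ETF1 was lower, at 142 and 67.5 CPM, and GSPT1 was at 264 and 282 CPM. EEF1D, a subunit of the exchange factor, was at 422 CPM in LNCaP_FGC and 925 CPM in LNCaP_C4-2B, and EEF1A1, which delivers tRNA and is itself a TOP messenger, was at 7971 and 5405 CPM, 1.47-fold lower by CPM but within 1.5-fold of the median gene. Of 39 initiation factors 13 were higher and 5 lower. EIF3K (224 and 567 CPM) and EIF4EBP1, the mTOR-controlled repressor of the cap-binding protein (160 and 505 CPM), were at one end and EIF2B4 (98.1 and 26.2 CPM) and EIF4EBP2 (84.7 and 28.0 CPM) at the other.

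Of 20 genes known for TOP messengers outside the members 10 were higher and none lower, but 5 of the 20 are elongation factors and 7 initiation factors counted above, and RACK1 and NPM1 also belong to other lists. Of the 6 in no other list 4 were higher and none lower. NAP1L1, a histone chaperone and 1 of those 6, was at 1343 and 4124 CPM, and PABPC1, the poly(A) binding protein, at 1113 and 558 CPM. The mitochondrial ribosomal proteins, encoded by nuclear genes, had a median log2 ratio of 0.21, with 43 of 78 higher and 6 lower. MRPL23 (14.8 and 103.4 CPM) and MRPL1 (222 and 46.9 CPM) were at their ends.

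Among genes that build ribosomes the counts lay nearer to those of all genes. Of 54 ribosome assembly factors 10 were higher and 13 lower, with a median log2 ratio of -0.55 beside -0.43 over all genes. NOP53, which carries RPL5 and RPL11 to the particle, was at 51.4 and 103.1 CPM, and BRIX1, another factor of the list, at 170 and 54.1 CPM. Of 19 RNA polymerase I genes 6 were higher and 4 lower, with POLR1D at 164 and 321 CPM and POLR1A, the catalytic subunit, at 36.5 and 12.1 CPM. Of 16 mTOR pathway genes, EIF4EBP1 and EIF4EBP2 again among them, 3 were higher and 5 lower, among them LARP1, which binds TOP tracts, at 304 and 127 CPM.

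Within each line, cells were compared by cell cycle phase, called from the expression of S and G2M genes. Ribosomal protein transcripts took their largest share in G1 in both lines. In LNCaP_FGC the share was 24.1% in 804 G1 cells, 22.7% in 463 S cells and 21.8% in 583 G2M cells. In LNCaP_C4-2B it was 29.6% in 904 G1 cells, 27.6% in 390 S cells and 26.5% in 556 G2M cells. The ratio of G1 to the other phases was 1.084 (1.083 to 1.086) in LNCaP_FGC and 1.099 (1.0973 to 1.1001) in LNCaP_C4-2B, smaller than the spread over cells of 1 phase. Median UMIs per cell were lower in G1 (17532 and 15823) than in S (19472 and 20875), and mitochondrial transcripts were also highest in G1, at 6.82% and 8.70%.

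**Figure D3:**
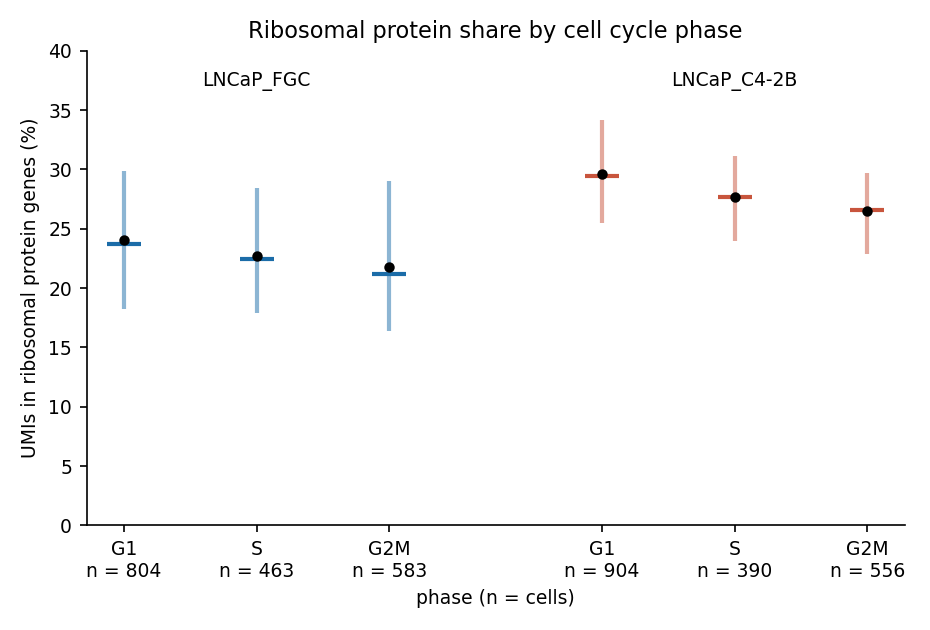
Percent of UMIs in ribosomal protein genes by cell cycle phase in both lines, with the share of summed UMIs as a black point, the median cell as a horizontal mark and the range from the lowest to the highest 5% of cells as a vertical bar. The shares go from 24.1% in G1 to 21.8% in G2M in LNCaP_FGC and from 29.6% to 26.5% in LNCaP_C4-2B, and the bars of the phases overlap.

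The shift to G1 was common to nearly all members. At 1.1-fold from the median gene, the rule used within a line, 56 of 82 members were higher in G1 and 1 lower in LNCaP_FGC, where 32.8% and 34.2% of all genes were. In LNCaP_C4-2B 77 were higher and none lower, where 32.9% and 33.7% of all genes were. The lower member in LNCaP_FGC was the sparse RPL10L, with 151 UMIs in that library and a counting interval that held 1. Of the 82 members 77 had a ratio above 1 in G1 in both lines, and 79 had a ratio below 1 in G2M in both lines. In S 54 members were below 1 and 9 above in both lines. The same counts were not made over all genes. The median gene's log2 ratio in LNCaP_FGC and LNCaP_C4-2B was -0.04 and -0.08 in G1 and 0.05 and 0.08 in G2M. In S it was -0.02 and -0.01. At 1.1-fold from it in S, no member was called in LNCaP_FGC, where 3207 of 11589 genes were higher and 3212 lower. In LNCaP_C4-2B 1 member was higher and none lower, where 3269 and 3261 of 10950 genes were.

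RPL3, the core large subunit protein near the peptidyl transferase center, had the highest G1 ratio in both lines among members with at least 20 CPM. It was at 2928 CPM in G1 and 2413 CPM in other cells of LNCaP_FGC, a ratio of 1.213 (1.198 to 1.229), and at 5983 and 5123 CPM in LNCaP_C4-2B, a ratio of 1.17 (1.16 to 1.18). RPL10A (1511 and 1290 CPM) was next in LNCaP_FGC, and RPL34 had a ratio of 1.15 in both lines.

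A few members departed from this. RPL22L1 was higher in S, at 1427 CPM against 1248 CPM in other cells of LNCaP_C4-2B, a ratio of 1.14 (1.12 to 1.17), and a ratio of 1.03 (1.01 to 1.05) in LNCaP_FGC. RPL22, its main gene, had a G1 ratio of 1.02 in LNCaP_FGC. The G1 interval held 1 for RPSA, RPL22L1 and RPL7L1 in LNCaP_FGC and for RPL26L1 and RPL10L in both lines. RPSA had a G1 ratio of 1.003 (0.988 to 1.017) in LNCaP_FGC and 1.06 (1.04 to 1.07) in LNCaP_C4-2B. RPL35, at the peptide tunnel, was at 3499 CPM in S and 3289 CPM in other cells of LNCaP_FGC, a ratio of 1.06 (1.05 to 1.08). RPL41, the highest member in that line, had ratios of 1.01 in G1 and 0.982 in G2M there, close to constant beside the others.

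LNCaP_FGC cells differ in ETV1, an ETS family transcription factor gene that is rearranged in this line. After thinning every cell to 11901 UMIs, which left 1623 of 1850 LNCaP_FGC cells, 628 cells with no ETV1 UMI were set against 740 cells with at least 2. Ribosomal protein transcripts took 21.6% of UMIs in cells without ETV1 and 23.6% in cells with it, a ratio of 0.916 (0.914 to 0.917). The middle 90% of cells overlapped widely, from 16.5% to 28.1% and from 18.3% to 29.9%. Cells without an ETV1 UMI were less often in G1, 40.4% against 48.1%, and the ratio among G1 cells alone was 0.929. Mitochondrial transcripts took 6.51% against 6.11%. Cells are not replicates, and a cell with no UMI of a gene may still express it.

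At 1.1-fold from the median gene, of 81 members tested none was higher and 65 were lower in cells without ETV1, where 27.0% and 26.3% of all genes were. The median gene was at a log2 ratio of 0.08, so this rule counted from above equal level. By CPM the members' median log2 ratio was -0.13, with 8 of the 81 above 0. RPL35A, a large subunit protein mutated in Diamond-Blackfan anemia, was the lowest, at 3081 CPM in cells without ETV1 and 4199 CPM in cells with it, a ratio of 0.734 (0.722 to 0.746). RPL23A was next, at 2310 and 2976 CPM, a ratio of 0.776 (0.761 to 0.791). RPL13 went the other way, at 4118 and 3630 CPM, a ratio of 1.13 (1.12 to 1.15), which lay less than 1.1-fold from the median gene.

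Over the steps of ETV1 the members did not all move the same way. RPL35A was at 3081, 3759, 3989, 4343 and 4262 CPM in cells with 0, 1, 2, 3 and 4 or more ETV1 UMIs, and RPL23A at 2310, 2743, 2854, 2921 and 3100 CPM. The share of all members differed mainly between 0 and the rest, at 21.6%, 23.3%, 23.7%, 23.8% and 23.5%. RPL13 declined over the steps, at 4118, 3978, 3736, 3683 and 3517 CPM. KLK3, which encodes the androgen-regulated protein PSA, moved with ETV1 over the same steps, at 209, 687, 960, 1339 and 1569 CPM. Over the 1623 cells Pearson's r of RPL35A was 0.48 with KLK3 and 0.35 with ETV1, that of RPL23A was 0.37 and 0.36, and that of RPL13 was -0.29 and -0.23. The ETV1 contrast therefore also separates cells by KLK3, whose part in these differences was not tested. RPL23A, higher in cells with ETV1, was also the member most in excess in LNCaP_FGC over LNCaP_C4-2B, whereas RPL35A was 1.23-fold higher in LNCaP_C4-2B. Both comparisons use the LNCaP_FGC library.

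**Figure D4:**
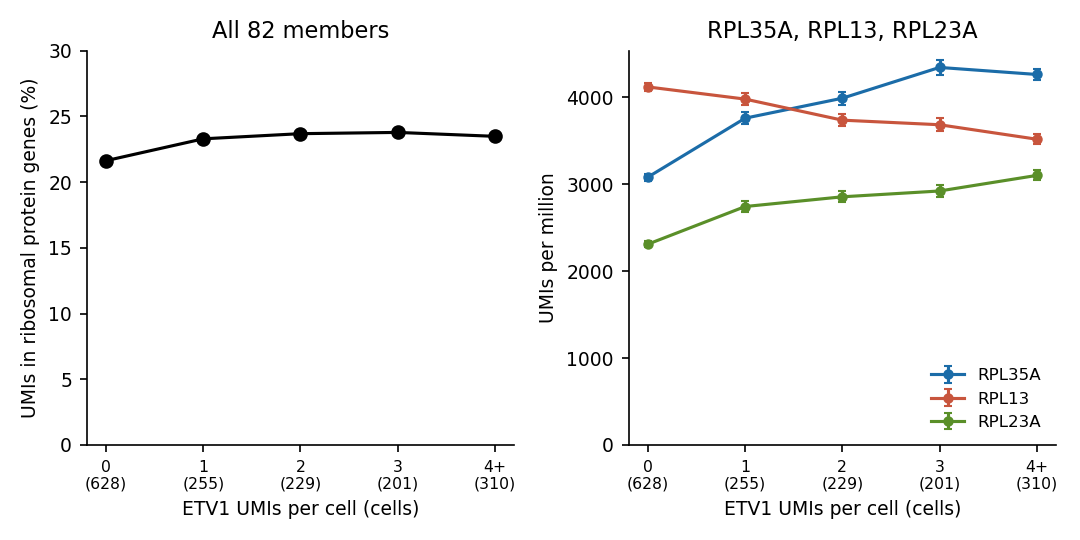
Ribosomal protein share in percent of UMIs (left) and CPM of RPL35A, RPL13 and RPL23A (right) in LNCaP_FGC cells by ETV1 UMIs per cell at a common depth of 11901 UMIs, with the number of cells in brackets and 95% counting intervals as bars. RPL35A goes from 3081 to 4262 CPM and RPL23A from 2310 to 3100 CPM between no ETV1 UMI and 4 or more, RPL13 from 4118 to 3517 CPM, and the share steps from 21.6% to values between 23.3% and 23.8%.

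Cells varied in ribosomal protein transcripts by more than counting gives, and more in LNCaP_FGC. At the common depth of 11901 UMIs, kept by 1623 LNCaP_FGC and 1665 LNCaP_C4-2B cells, the coefficient of variation (CV) of the summed members with the counting part removed was 15.7% in LNCaP_FGC and 9.63% in LNCaP_C4-2B. For single members, leaving out the sparse RPL10L, the median was 18.99% and 13.3%. Of 81 members 76 had the lower CV in LNCaP_C4-2B. The CV was not computed for other genes, so whether this difference is particular to the members was not tested.

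The members that varied most in LNCaP_FGC were RPL7L1 (CV of 31.4%), RPL35A (29.1%), RPL34 (28.7%) and RPS28 (28.1%). In LNCaP_C4-2B RPL35A, RPL34 and RPS28 were at 13.1%, 13.2% and 12.1%, near the median. The most variable there were RPL22L1 (31.6%), RPL26L1 (31.3%), RPL7L1 (27.4%) and RPS20 (22.1%), of which RPL22L1 and RPS20 were at 22.3% and 16.4% in LNCaP_FGC. RPL22L1, RPL26L1 and RPL7L1 are L-type paralogs, but RPL36AL, another, was at 13.7% in LNCaP_C4-2B, near the median. RPL26L1 had a mean of only 1.07 UMIs per cell there, and no interval was computed for a CV. In LNCaP_FGC the most variable members after RPL7L1 were canonical genes. The steadiest were RPS25, RPS7, RPL15 and RPL9 in LNCaP_FGC (14.5% to 15.05%) and RPS10, RPL27, RPL9 and RPLP0 in LNCaP_C4-2B (7.28% to 10.6%).

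**Figure D5:**
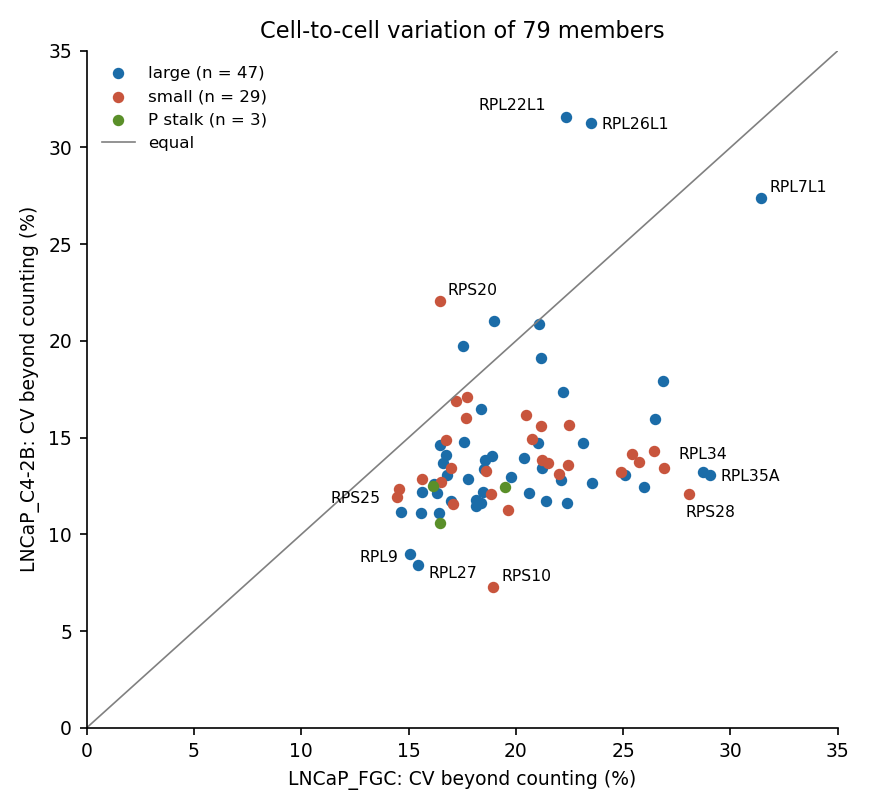
CV over cells beyond counting of 79 members in LNCaP_FGC (horizontal, percent) and LNCaP_C4-2B (vertical, percent) at a common depth of 11901 UMIs, coloured by subunit. Of the 79 points 74 lie below the line of equal CV, and RPL22L1 (22.3% against 31.6%) and RPL26L1, the latter sparse, stand apart above it.

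Most members varied together over cells. Pearson's r of a member with the sum of the others had a median of 0.59 over the 81 members in LNCaP_FGC and 0.44 in LNCaP_C4-2B, with RPS18 at 0.70 in LNCaP_C4-2B as the highest there. Among 3240 pairs of members the median r was 0.30 and 0.18. RPL7L1 stood outside in both lines, with an r of -0.13 and -0.06 with the other members, and RPL22L1 was at 0.40 in LNCaP_FGC but -0.10 in LNCaP_C4-2B. These values share the cell totals and the depth of 1 library each and are given as a description.

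Outside the members, the per cell share of ribosomal protein transcripts moved with that of the 7 elongation factors (r of 0.63 in LNCaP_FGC and 0.73 in LNCaP_C4-2B). For the 20 TOP messengers, which include 5 of these factors, r was 0.67 and 0.69, and for the 6 of them in no other list it was 0.45 and 0.23. With mitochondrial ribosomal proteins r was -0.02 and 0.00, and with ribosome assembly factors r was -0.29 and -0.09. Depth moved weakly with the share and in opposite senses. From the lowest to the highest of 3 groups of cells by UMIs, the mean share was 22.6%, 22.2% and 23.7% in LNCaP_FGC and 28.8%, 28.2% and 27.5% in LNCaP_C4-2B.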

How the data were processed

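The authors aligned reads to GRCh38 and counted UMIs with Cell Ranger 6.0 and handled cells in Seurat 5.011, per the submitters' processing notes. They filtered cells on genes, reads, hemoglobin, ribosomal and mitochondrial percentages and doublet score, drew 1850 cells per line and thinned counts to a common mean. The deposited tables hold raw UMI counts that were not normalized, with genes given by symbol only. No doublet caller was run here.

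Counts were summed per library. CPM carry exact Poisson, shares Clopper-Pearson and ratios exact conditional intervals at 95%. With 1 library per line no test was run. Genes needed 100 UMIs over both libraries, and calls were made at 1.5-fold between lines and 1.1-fold within a line from the median gene. Phases were called per library with Seurat 5.3.0 from 97 genes. Cells were thinned with a fixed seed to 11901 UMIs for ETV1 and variation. Variation is the variance less the mean, over the squared mean. Scripts used Python, and TMM factors came from edgeR 4.0.16 as an alternative. They were tested on simulated data. GC, length and position were matched by symbol to GENCODE v44, which held all 82 members, and start regions to RefSeq.

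Named genes were the 5 highest and 5 lowest members by level, 6 and 6 by ratio, 3 and 3 per phase and library, 2 and 2 for ETV1 and 4 and 4 for variation, up to 2 at each end of a list, all with 20 CPM, and a set fixed by name. RPS4Y1 and a few other genes of this rule are not reported or drawn here, and protein sequences were not used here. Members and lists were chosen with earlier results of these data known.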

Additional observations from a re-analysis of the deposited data

Results flagged for a closer look

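For 4 members the ratio of 1 phase to the others lay on opposite sides of 1 in the lines, with neither counting interval reaching 1, and the difference was not tested. RPL35 in G1 had a ratio of 0.965 in LNCaP_FGC and 1.02 in LNCaP_C4-2B. In S, RPL23A had 0.974 in LNCaP_C4-2B and 1.02 in LNCaP_FGC, RPL9 had 0.968 and 1.02, and RPSA had 0.986 and 1.02. All are within 4% of equal level.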

How the results depend on the processing

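No paired analysis was possible because each line has 1 library, and for the same reason no replicate could be left out. The direction of the difference between lines, of the G1 share and of the ETV1 contrast held under each alternative run. The ribosomal share in LNCaP_FGC and LNCaP_C4-2B was 22.8% and 28.2% with every cell weighted alike, 24.5% and 30.7% without mitochondrial genes, 22.8% and 28.2% at a common depth, 22.5% and 28.1% without the lowest and highest 10% of cells by UMIs, 19.6% and 24.0% without the 5 highest members, and 24.1% and 29.6% in G1 cells. The ratio of the sums was 1.24, 1.252, 1.24, 1.248, 1.23 and 1.23 in that order. The count of members higher in LNCaP_C4-2B was 22 by CPM alone and 22 at a fold of 2, and between 30 and 57 under the other alternatives. The count of lower members was 5 by CPM alone, 5 with totals free of ribosomal and mitochondrial genes, 5 without the UMI minimum, 5 at 3500 UMIs, 5 at a looser fold and 1 at a fold of 2. The members' median log2 ratio was 0.34 with totals free of ribosomal and mitochondrial genes, 0.60 with TMM and 0.65 with median-of-ratios factors, all scalings that move the median gene. The G1 ratio in LNCaP_FGC and LNCaP_C4-2B was 1.082 and 1.101 with phases scored without ribosomal protein genes, 1.082 and 1.101 with both libraries scored together, 1.088 and 1.101 at a common depth, 1.081 and 1.102 with every cell weighted alike, and 1.073 and 1.089 without the phase scoring genes in the total. The ETV1 ratio was 0.895 in all cells at their own depth, 0.919 against at least 1 ETV1 UMI, 0.929 in G1 cells and, among alternatives chosen after seeing the data, 0.919 without mitochondrial genes. Another random thinning, also chosen then, gave a ratio of 1.11 for RPL13 in the ETV1 contrast, outside its counting interval, kept the ratios of the sum, RPL35A and RPL23A within theirs and moved neither CV by 1 percentage point. As a part of ribosomal protein UMIs only, the median CV was 11.9% in LNCaP_FGC and 8.91% in LNCaP_C4-2B. At this depth the member second lowest in level, RPL26L1, had 3515 and 3096 UMIs, and RPL10L, with 151 and 131, is the member whose ratio depth limits.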
